A study of Mus musculus with 74 samples.

Results

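Fatty acid oxidation genes were followed in the adipocytes of brown and white fat over the day: 31 genes of the 55487 in the RNA table, chosen by name for their place in the pathway. All 31 were found in the table. They comprise 6 genes of activation and the carnitine shuttle (Acsl1, Acsl5, Cpt1a, Cpt1b, Cpt2, Crat), 6 acyl-CoA dehydrogenases (Acadvl, Acadl, Acadm, Acads, Acad10, Acad11), 5 enzymes of the later steps of the beta-oxidation spiral (Hadha, Hadhb, Hadh, Echs1, Acaa2) and 3 auxiliary enzymes for unsaturated chains (Eci1, Eci2, Decr1). The other members are 3 genes of the electron transfer flavoprotein system (Etfa, Etfb, Etfdh), 4 peroxisomal enzymes (Ehhadh, Hsd17b4, Acaa1a, Acaa1b) and 4 regulators and thioesterases (Ppara, Pdk4, Acot2, Acot11).

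The RNA and chromatin samples came from Adiponectin-Cre:NuTRAP mice, in which Cre under an adiponectin promoter, active in adipocytes, switches on tags for their ribosomes and nuclei. Brown adipocytes from brown adipose tissue (BAT) and white adipocytes from the inguinal white depot (WAT) were sampled at 6 zeitgeber times, ZT1, ZT5, ZT9, ZT13, ZT17 and ZT21, where ZT counts hours from lights on. Ribosome-bound RNA was purified with an anti-GFP antibody and sequenced in 17 BAT and 18 WAT libraries, 3 for each time except BAT at ZT17, which had 2. Open chromatin was mapped by ATAC-seq, which inserts adapters into accessible DNA, in 18 BAT and 18 WAT libraries of sorted nuclei, and binding of the clock activator BMAL1 by ChIP-seq in white fat of C57BL6J mice at ZT4, in 2 libraries. The series is titled for time-restricted feeding and obesity, but the labels of these samples give no diet, feeding schedule, sex, age or genotype other than those above. The labels do not say whether numbered replicates came from separate animals, so p-values measure the spread between these samples, which may be technical.

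Mitochondrial fatty acid oxidation starts when acyl-CoA synthetases activate a fatty acid and CPT1, the malonyl-CoA-inhibited step, loads it onto carnitine for transport, after which CPT2 restores the acyl-CoA inside. The chain is then shortened in repeated rounds of dehydrogenation, hydration, a further dehydrogenation and thiolysis, and the first dehydrogenation passes its electrons through the electron transfer flavoprotein to ubiquinone. Brown adipocytes burn fatty acids this way to feed uncoupled respiration through UCP1, whereas white adipocytes mainly store and release them, and peroxisomes carry a parallel pathway for very long and branched chains.

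In the results below, Acot11 had the clearest daily change in BAT, Acsl1 the strongest BMAL1 peak, and Hadhb shares its promoter with Hadha. A Pdk4 promoter region was called more open in BAT, over windows that overlapped only in part between depots. The promoter sequences of these 4 members are shown because those results turn on them. Each is 300 bases from RefSeq (GRCm38.p6, the assembly behind the mm10 build of the files), running from 250 bases before the annotated start site to 50 after it, on the gene's own strand, 5′ to 3′, at chr4:106799782-106800081 (minus strand), chr8:46470787-46471086 (plus), chr5:30155003-30155302 (plus) and chr6:5496229-5496528 (minus), in the order listed. Capitals mark the E-box CACGTG, the palindromic motif of BMAL1-CLOCK.
Acot11: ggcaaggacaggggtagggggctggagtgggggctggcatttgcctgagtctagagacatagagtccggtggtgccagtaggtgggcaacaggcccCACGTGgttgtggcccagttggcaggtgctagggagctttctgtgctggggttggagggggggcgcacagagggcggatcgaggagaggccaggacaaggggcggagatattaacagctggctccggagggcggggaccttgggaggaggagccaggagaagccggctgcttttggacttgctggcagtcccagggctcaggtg
Acsl1: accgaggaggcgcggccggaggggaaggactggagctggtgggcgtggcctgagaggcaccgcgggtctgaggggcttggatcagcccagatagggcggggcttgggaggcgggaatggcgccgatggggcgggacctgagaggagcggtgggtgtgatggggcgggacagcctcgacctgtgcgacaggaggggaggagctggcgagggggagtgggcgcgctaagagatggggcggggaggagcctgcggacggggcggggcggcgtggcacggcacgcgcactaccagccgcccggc
Hadhb: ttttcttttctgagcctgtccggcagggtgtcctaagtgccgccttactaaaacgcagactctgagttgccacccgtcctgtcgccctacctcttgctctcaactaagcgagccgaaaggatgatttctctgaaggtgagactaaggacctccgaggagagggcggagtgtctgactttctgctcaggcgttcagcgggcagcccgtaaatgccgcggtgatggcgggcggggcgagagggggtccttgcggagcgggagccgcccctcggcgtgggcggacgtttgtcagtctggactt
Pdk4: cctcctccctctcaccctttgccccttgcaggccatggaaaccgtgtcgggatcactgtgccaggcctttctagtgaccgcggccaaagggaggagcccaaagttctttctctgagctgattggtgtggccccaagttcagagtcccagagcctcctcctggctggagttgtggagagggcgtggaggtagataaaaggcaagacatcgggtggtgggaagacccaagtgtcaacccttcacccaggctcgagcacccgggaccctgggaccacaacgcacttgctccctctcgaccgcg
The RefSeq table held 28 promoter windows for 26 members. The motif search used CACGTG, the related CACGTT, the estrogen-related-receptor half-site TNAAGGTCA and the PPAR-type direct repeat DR1 (AGGTCA, any base, AGGTCA) on both strands. CACGTG stood in 1 member window, the one of Acot11 shown, starting at base 97 of the window, and in 7.15% of 32851 windows of all genes. The other motifs were in no member window, and in 4.68%, 1.28% and 0.0396% of all windows. The Hadha and Hadhb windows run in opposite directions and share 228 bases, because the start sites of these genes, which encode the alpha and beta subunits of the trifunctional protein, lie 73 bases apart. The member windows held 43.7% to 77.0% G and C, with a median of 60.7%.

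RNA libraries held 4980147 to 46274438 estimated counts for BAT, against 1301522 to 6481154 for WAT. Ribosomal RNA loci took 0.813% to 4.64% of a BAT library and 5.26% to 66.0% of a WAT library, and mitochondrial genes 0.126% to 2.25% of BAT and 0.685% to 27.6% of WAT libraries. The loci counted as ribosomal RNA include Gm42418 and the protein-coding gene Lars2, and their separate shares are not given. In 3 WAT libraries, ZT5 replicate 3, ZT9 replicate 3 and ZT17 replicate 2, ribosomal RNA loci took over 50% of the counts. The number of members called without these libraries is given wherever it changed. Of 9 brown adipocyte markers 8 were called higher in BAT, with Ucp1 at 720 to 2810 CPM (counts scaled to library size by TMM) in BAT libraries and 4.36 to 151 CPM in WAT libraries, and Elovl3 was near 0 in both depots. The summed level of 10 general adipocyte markers was 32820 to 72976 CPM in BAT libraries and 9715 to 86446 CPM in WAT libraries, most of it from 1 gene, Fabp4, with 26469 to 66170 CPM in BAT libraries and 6189 to 73118 CPM in WAT libraries. Summed macrophage markers were 10.1 to 20.6 CPM in BAT libraries and 27.0 to 169 CPM in WAT libraries, lymphocyte markers 0 to 1.09 CPM in BAT libraries and 43.1 to 264 CPM in WAT libraries, and fibroblast markers 14.5 to 87.6 CPM in BAT libraries and 180 to 1162 CPM in WAT libraries. All 8 lymphocyte, 6 endothelial and 7 fibroblast markers and 5 of 7 macrophage markers were called lower in BAT. Skeletal muscle markers summed to 52.9 to 1132 CPM in BAT libraries and 11.9 to 622 CPM in WAT libraries. In tissue-derived RNA, a lower share of tagged cells and less RNA per cell cannot be told apart, and the part of these other cells in the results below was not tested.

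The first comparison asks how the depots differ in the ribosome-bound RNA of these genes, with BAT set over WAT across all times. Of the 31 genes, 25 were higher in BAT and 1, Cpt1a, was lower, at an adjusted p under 0.05 and at least a 2-fold difference (edgeR quasi-likelihood test, Benjamini-Hochberg adjustment over 14969 genes). Among all genes tested, 23.3% were called higher and 33.0% lower, 56.3% in all. The median log2 difference of the members was 2.26, against -0.12 over all genes. Together the members took 3.08% to 3.76% of all counts in BAT libraries and 0.219% to 0.715% in WAT libraries, ranges that do not overlap. For 21 members every BAT library lay above every WAT library, which held for 9.95% of all genes tested, and for none did every BAT library lie below, which held for 4.2%.

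**Figure D1:**
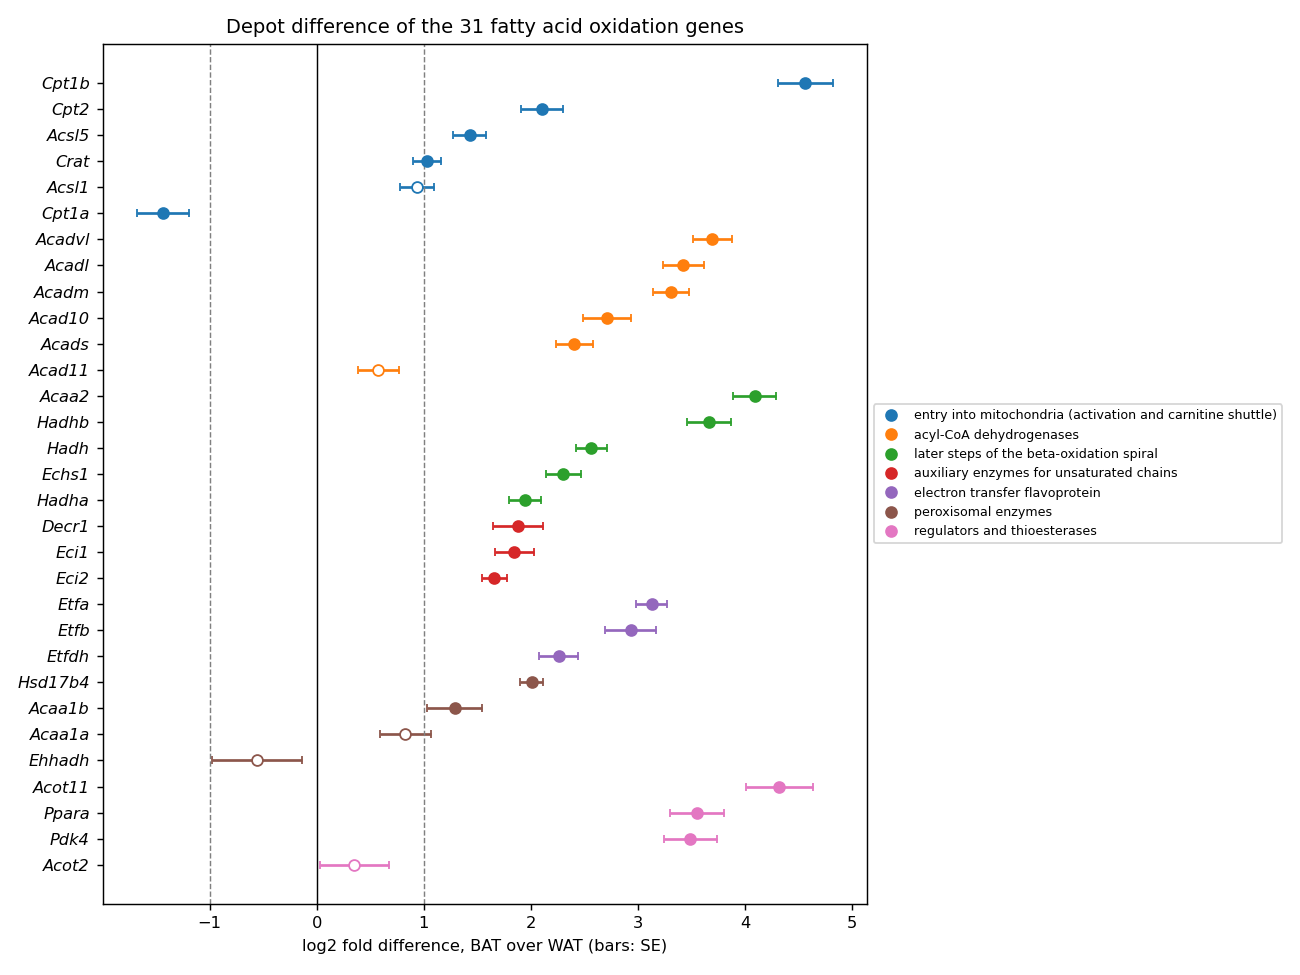
Log2 fold difference of each member, BAT over WAT, with bars for the SE, grouped by role. Filled points passed an adjusted p of 0.05 and a 2-fold difference (dashed lines); Cpt1b and Acot11 lie farthest to the right at 4.56 and 4.32, and Cpt1a is the filled point left of 0.

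At the entry into mitochondria the 2 genes of the CPT1 step went opposite ways on average over the times. Cpt1b, the muscle and brown fat isoform, had 121, 225 and 389 CPM (lowest, median and highest library) in BAT, against 2.25, 7.33 and 32.7 CPM in WAT libraries, a log2 difference of 4.56 ± 0.26 (SE, n = 17 and 18 libraries, edgeR adjusted p = 1.26e-18). Cpt1a, the liver-type isoform, had 0.895, 2.74 and 3.92 CPM in BAT libraries and 0.619, 7.41 and 16.6 CPM in WAT libraries, a log2 difference of -1.43 ± 0.24 (edgeR adjusted p = 1.89e-06), and its ranges overlapped between the depots. By time, the difference of Cpt1a in mean log2 CPM was -1.71, -2.61, -1.72 and -1.52 from ZT1 to ZT13. It was only -0.36 at ZT17 and 0.12 at ZT21. Per length, the Cpt1b transcript was 129.5 times as abundant as Cpt1a in BAT (median ratio of TPM, a level corrected for transcript length; range 67.2 to 294 over libraries) and 1.25 times in WAT (0.377 to 9.39). Cpt1b adjoins Chkb, with which readthrough transcripts are known; how reads of the pair were separated is not stated in the sources. Skeletal muscle also uses Cpt1b. Its markers, 6 of 10 of them called higher in BAT, are given above, and the BAT library with the highest muscle sum, ZT13 replicate 3, had 286 CPM of Cpt1b.

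Cpt2, which regenerates acyl-CoA in the matrix, was higher in BAT by a log2 difference of 2.10 ± 0.19, with 182, 281 and 450 CPM in BAT libraries and 26.7, 58.3 and 179 CPM in WAT libraries. Acsl5, an acyl-CoA synthetase, was higher by 1.43 ± 0.15. Crat, which moves acetyl groups to carnitine, was called at 1.03 ± 0.13, a 2.04-fold difference. That is close to the 2-fold limit: Crat fell below it in 20 of 35 fits that each left out 1 library, with log2 differences from 0.86 to 1.09 over those fits, and its median was 109 CPM in BAT libraries and 48.8 CPM in WAT libraries. Acsl1, the main adipocyte acyl-CoA synthetase, differed by 0.94 ± 0.16 and passed the p threshold but not 2-fold; without the WAT ZT13 replicate 3 library it reached 1.04.

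All 4 chain-length-specific dehydrogenases, which carry out the first step of each round, were higher in BAT. Acadvl, for very long chains, had 1964, 2666 and 3656 CPM in BAT libraries, against 91.3, 204 and 336 CPM in WAT libraries (log2 difference 3.70 ± 0.18, edgeR adjusted p = 3.14e-20). Acadl, for long chains, differed by 3.43 ± 0.19, Acadm, for medium chains, by 3.31 ± 0.17, and Acads, for short chains, by 2.41 ± 0.17. No WAT library reached the lowest BAT library for any of these 4. Of the related Acad10 and Acad11, Acad10 was higher by 2.71 ± 0.22 at low level (median 19.1 CPM in BAT libraries and 3.19 CPM in WAT libraries). Acad11 differed by only 0.58 ± 0.19, short of 2-fold, with medians of 25.6 CPM in BAT libraries and 21.02 CPM in WAT libraries and overlapping libraries.

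The later steps were all higher in BAT, 5 of 5. Acaa2, the mitochondrial thiolase, had 2217, 2956 and 3537 CPM in BAT libraries and 53.4, 181 and 338 CPM in WAT libraries, a log2 difference of 4.09 ± 0.20 (edgeR adjusted p = 3.2e-20). Hadhb, the thiolase subunit of the trifunctional protein, had 2936, 3797 and 4397 CPM in BAT libraries and 125, 264 and 533 CPM in WAT libraries (3.67 ± 0.21). Hadha, the partner subunit that carries the hydratase and dehydrogenase, differed less, by 1.95 ± 0.15, with 84.0, 149 and 238 CPM in BAT libraries and 18.97, 42.4 and 53.1 CPM in WAT libraries. The proteins form 1 complex. By the authors' TPM, the Hadhb transcript was 50.0 times as abundant as Hadha in BAT (median ratio, range 37.8 to 67.3) and 13.4 times in WAT (4.29 to 38.5). The TPM of Hadhb did not follow its CPM. In BAT it had 3797 CPM and 2291 TPM at ZT1 replicate 1, against 3661 CPM and 1026 TPM at ZT9 replicate 3. The part of transcript assignment in the ratio was not tested. Hadh, the short-chain hydroxyacyl-CoA dehydrogenase, differed by 2.57 ± 0.14 and Echs1, the short-chain enoyl-CoA hydratase, by 2.31 ± 0.16.

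The auxiliary enzymes that reposition or remove double bonds were higher in BAT as well, Decr1 by 1.88 ± 0.23, Eci1 by 1.85 ± 0.18 and Eci2 by 1.66 ± 0.12. Both subunits of the electron transfer flavoprotein and its ubiquinone oxidoreductase followed, with 3.13 ± 0.14 for Etfa, 2.93 ± 0.24 for Etfb and 2.26 ± 0.18 for Etfdh. Etfb was the most abundant member per length in BAT, with a median of 10520 TPM, ahead of Acaa2 at 3853, Acadvl at 3231 and Hadhb at 2118 TPM. The subunits Etfa and Etfb pair in the protein, and the TPM ratio of Etfb over Etfa was 10.9 in BAT (range 4.61 to 26.3) and 19.1 in WAT (5.29 to 66.6).

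Among the peroxisomal genes 2 of 4 were called higher in BAT. Hsd17b4, the peroxisomal D-bifunctional enzyme, differed by 2.01 ± 0.11 and the thiolase Acaa1b by 1.29 ± 0.26. By time, the difference of Acaa1b in mean log2 CPM was 1.66 to 2.69 from ZT1 to ZT13, but 0.36 at ZT17 and -0.005 at ZT21. Its close paralog Acaa1a differed by 0.83 ± 0.24, under 2-fold, with 416, 684 and 1088 CPM in BAT libraries and 124, 330 and 1275 CPM in WAT libraries; reads of these near-identical genes can be assigned to either, so both values are uncertain. Ehhadh, the other peroxisomal bifunctional enzyme, had 0.432, 3.52 and 22.2 CPM in BAT libraries and 1.19, 6.62 and 17.98 CPM in WAT libraries, a log2 difference of -0.55 ± 0.42 that did not pass (adjusted p = 0.229).

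Of the regulators, Ppara, the nuclear receptor that switches on oxidation genes, had 16.6, 30.9 and 42.0 CPM in BAT libraries and 0, 2.90 and 9.74 CPM in WAT libraries (log2 difference 3.55 ± 0.25). Pdk4, the kinase that blocks pyruvate dehydrogenase and so spares glucose, had 231, 661 and 1938 CPM in BAT libraries and 19.4, 65.8 and 116 CPM in WAT libraries (3.49 ± 0.25). Acot11, a thioesterase known from cold-exposed mouse brown fat that hydrolyses acyl-CoA, had 15.8, 30.2 and 52.7 CPM in BAT libraries and 0, 1.11 and 7.43 CPM in WAT libraries, where 4 of 18 libraries had no count (4.32 ± 0.32). For these 3 genes the depots did not overlap. Acot2, a mitochondrial thioesterase nearly identical to Acot1, differed by 0.35 ± 0.32 and did not pass (adjusted p = 0.322). Acot1, counted separately, was lower in BAT (log2 difference -1.78), and the split of reads between the pair is uncertain.

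The other genes of the pathway, taken from lists of genes that are not members, moved in both directions: 43 of 75 tested were called higher in BAT and 8 lower. In the list of fatty acid uptake and binding, 2 of 8 were higher, the muscle-type binding protein Fabp3 (4.64) and the transporter Slc27a2 (3.85), and the lipoprotein lipase gene Lpl was lower (-1.42). Of 10 other activation, carnitine and malonyl-CoA genes, 6 were higher, among them the carnitine-acylcarnitine carrier Slc25a20 (2.45), and Cpt1c, the neuronal CPT1, was lower (-1.61). In mitochondrial acyl-CoA metabolism 13 of 18 were higher and none lower, with Acat1, the ketone and isoleucine thiolase, at 2.42. Peroxisomal oxidation had 9 of 14 higher, including Phyh, of alpha-oxidation, at 3.26, and 1 lower, the transporter Abcd2 (-1.39). Thioesterases had 6 of 8 higher, with Acot13 at 3.39. Of 18 PPAR and PGC1 regulators and their known targets, 8 were higher, including Esrra at 2.73, and 4 lower, including Nrip1, a corepressor of oxidation genes, at -2.12. Values in this paragraph are log2 differences, BAT over WAT.

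The next comparison asks which members followed a 24 h rhythm, by a cosine curve fitted to the 6 times in each depot. In BAT 9 of 31 were called at an adjusted p under 0.05, and 9.17% of 12394 genes tested were. The size given is the fitted range from trough to peak on the log2 scale. The SE of a rhythm, or of a rhythm difference, is approximate. It was calculated back from the statistic of the joint test of cosine and sine that gave the p-value. The SEs of depot and dark-light differences were also calculated back from the statistic of their test. Ehhadh, Acad11 and Pdk4 peaked in the hours around lights on, at ZT0.944, ZT0.157 and ZT3.22. Acaa1b, Acadl, Acadvl, Cpt1b and Acads peaked around lights off, between ZT11.2 and ZT12.5. Acot11 peaked in the dark, at ZT16.2.

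**Figure D2:**
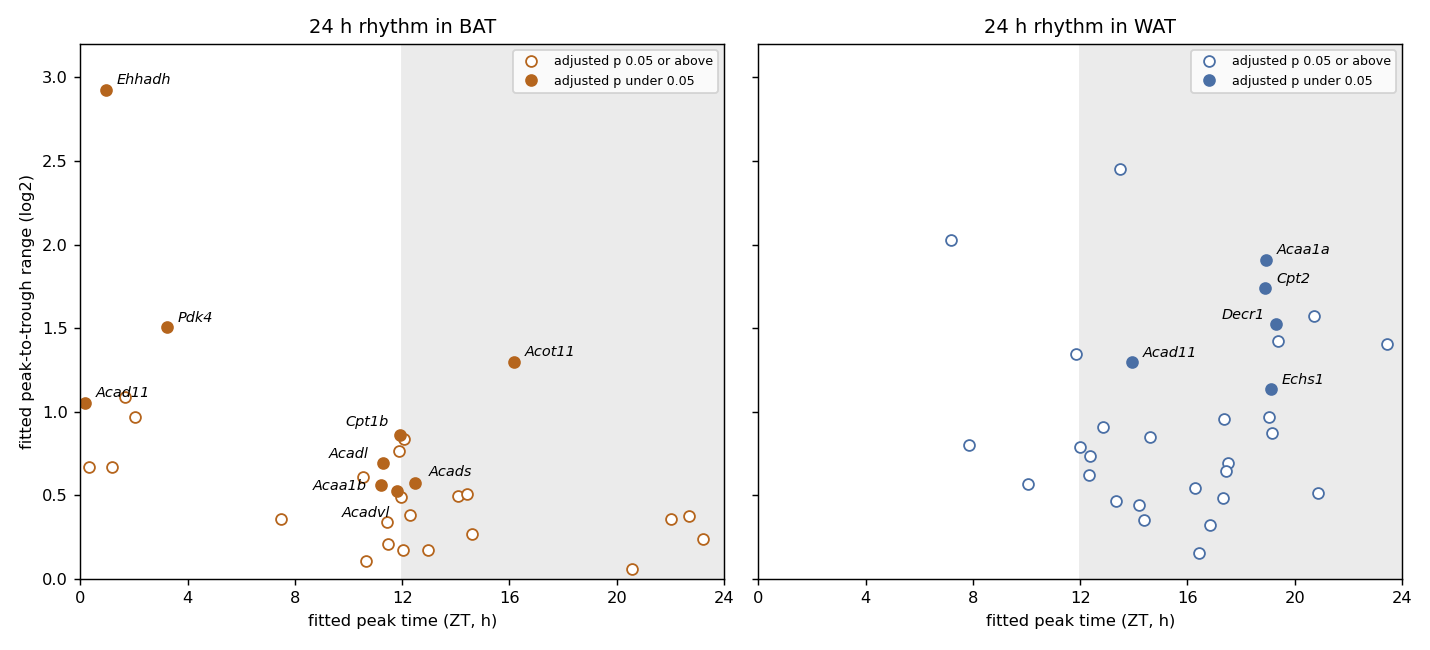
Fitted 24 h peak time (ZT, hours) against fitted trough-to-peak range (log2) for each member, BAT left and WAT right, with the dark hours in grey. Filled points had an adjusted p under 0.05, 9 in BAT and 5 in WAT; in BAT 5 sit between ZT11.2 and ZT12.5 and the other 4 lie elsewhere, Acot11 at ZT16.2 and Pdk4 at ZT3.22 among them, and 4 of the 5 in WAT sit near ZT19.

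Acot11 rose through the light hours into the dark in BAT. Its libraries had 15.8, 18.6 and 16.0 CPM at ZT1, 24.3, 22.4 and 23.8 at ZT5, 33.9, 25.1 and 23.3 at ZT9, 41.7, 41.0 and 34.8 at ZT13, 41.6 and 51.5 at ZT17, and 30.2, 52.7 and 45.4 at ZT21. Every library at ZT13 and ZT17 was above every library at ZT1, ZT5 and ZT9. The range was 1.299 ± 0.23 (SE, n = 17 libraries, edgeR adjusted p = 0.00737), and the call held in all 17 fits that left out 1 library. Ehhadh had the widest range, 2.93 ± 0.61 (edgeR adjusted p = 0.0186), on low counts: 3.69, 22.2 and 11.3 CPM at ZT1, 7.77, 10.6 and 1.85 at ZT5, 4.06, 0.432 and 1.64 at ZT9, 1.31, 2.64 and 0.883 at ZT13, 3.52 and 1.87 at ZT17, and 8.42, 1.33 and 9.25 at ZT21. Its high libraries were at ZT1, ZT5 and ZT21, each of which also held a library of under 4 CPM, and without the ZT1 replicate 2 library the adjusted p was 0.0687.

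Pdk4, whose product holds back glucose oxidation, was highest at ZT1 in BAT. It had 1201, 1938 and 1473 CPM at ZT1, 848, 1033 and 661 at ZT5, 875, 498 and 585 at ZT9, 502, 705 and 480 at ZT13, 513 and 285 at ZT17, and 848, 438 and 231 at ZT21. Every ZT1 library was above every library of the other times, and the range was 1.51 ± 0.37 (edgeR adjusted p = 0.0386). Cpt1b had 153, 156 and 139 CPM at ZT1, 186, 162 and 225 at ZT5, 241, 298 and 389 at ZT9, 246, 262 and 286 at ZT13, 234 and 193 at ZT17, and 183, 303 and 121 at ZT21, with a range of 0.86 ± 0.22 (edgeR adjusted p = 0.0433). Its ZT9 and ZT13 libraries were all above those of ZT1 and ZT5, and the ZT21 libraries lay from 121 to 303.

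Among the dehydrogenases in BAT, Acadl had a range of 0.69 ± 0.15 (adjusted p = 0.0246), Acads 0.57 ± 0.13 (0.0320), Acadvl 0.52 ± 0.14 (0.0488) and Acad11 1.05 ± 0.25 (0.0340), and the peroxisomal thiolase Acaa1b 0.56 ± 0.14 (0.0402), all by edgeR. The nearest members that did not pass were Etfb (adjusted p = 0.0565), Acsl1 (0.0589) and Decr1 (0.0658). These calls lie close to the threshold and depend on single libraries: between 1 member (without the ZT1 replicate 2 library) and 17 (without ZT21 replicate 2) were called when 1 library was left out. The calls over all genes moved with the same libraries: those fits called 460 and 3383 genes, against 1136 with all libraries. Of the 9, Acadl held in 11 of those 17 fits, Acads in 10, Acad11 in 9, Acaa1b and Pdk4 in 7 each, Cpt1b in 3 and Acadvl in 2.

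Over all 31 members in BAT, called or not, 18 fitted peaks fell between ZT9 and ZT15 and 9 between ZT21 and ZT3. Abundant genes in general peaked at those first hours: in the highest of 5 equal classes of genes by level, which held 23 members, 52.3% of all genes and 15 of the members peaked between ZT9 and ZT15. The scaling factor that edgeR's TMM method gave to BAT libraries also varied with time, averaging 0.883 at ZT9 and 0.904 at ZT13 against 1.16 at ZT1. Without these factors Acads, Acaa1b and Acadvl had ranges of 0.24, 0.23 and 0.17 and were not called, so their rhythm depends on the scaling. Summed brown adipocyte markers in BAT averaged 9855 CPM at ZT1, 12859 at ZT5, 15714.5 at ZT9, 16199 at ZT13, 14384 at ZT17 and 12686 at ZT21. The summed adipocyte markers, mostly Fabp4, averaged 38041, 38937, 61723, 49441, 44887 and 42130 CPM at those times. Ribosomal RNA loci took a mean of 1.03%, 1.44%, 3.01%, 2.77%, 1.38% and 2.36%. The part of these in the BAT rhythms was not tested.

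In WAT 5 of 31 members were called rhythmic, where 9.9% of 12703 genes tested were. Cpt2, Acaa1a, Decr1 and Echs1 peaked late in the dark, between ZT18.9 and ZT19.3, and Acad11 peaked at ZT13.9. Cpt2 had 49.3, 82.4 and 45.0 CPM at ZT1, 28.3, 37.4 and 38.1 at ZT5, 41.5, 26.7 and 101 at ZT9, 40.4, 26.8 and 67.9 at ZT13, 179, 67.3 and 164 at ZT17, and 136, 88.4 and 154 at ZT21. The libraries at ZT17 and ZT21 were the highest apart from 1 each at ZT1, ZT9 and ZT13 that lay above the lowest of them. The range of Cpt2 was 1.74 ± 0.36 (SE, n = 18 libraries, edgeR adjusted p = 0.0117), and this call held in all 18 fits that left out 1 library.

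Acaa1a showed the same late rise in WAT, with 324, 528 and 244 CPM at ZT1, 217, 170 and 197 at ZT5, 306, 134 and 708 at ZT9, 189, 124 and 337 at ZT13, 1184, 467 and 1275 at ZT17, and 1091, 517 and 1061 at ZT21 (range 1.91 ± 0.45, edgeR adjusted p = 0.0220). Acad11 had a range of 1.296 ± 0.31 (adjusted p = 0.0252), Decr1 1.52 ± 0.40 (0.0425) and Echs1 1.14 ± 0.30 (0.0434) by edgeR. Next in order, Cpt1a (0.0638), Etfb (0.0641) and Hadh (0.0861) did not pass. The number of members called ran from 1 (without the ZT5 replicate 2 library) to 10 (without ZT9 replicate 3); over all genes it ran from 472 (without ZT21 replicate 1) to 2519 (without ZT9 replicate 3), against 1257 with all libraries. Acad11 held in 13 of 18 such fits, Acaa1a in 11, Echs1 in 4 and Decr1 in 3.

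Without the 3 WAT libraries in which ribosomal RNA loci took over 50% of the counts, 12 members were called rhythmic in WAT, and 19.7% of all genes tested. Of those 12, 11 had fitted peaks between ZT15 and ZT21, with Cpt2 at a range of 2.32, Decr1 at 2.28, Acaa1a at 2.57 and its paralog Acaa1b at 2.71. In the fit of all 18 WAT libraries, abundant genes in general peaked then. In the highest of 5 classes by level 57.1% of all genes and 14 of the 19 members there peaked between ZT15 and ZT21. The summed level of the 10 adipocyte markers in WAT, mostly Fabp4, averaged 40621 CPM at ZT1, 13143 at ZT5, 25729.7 at ZT9, 17099.7 at ZT13, 64808 at ZT17 and 68741 at ZT21. The 10 did not move as 1. With all 18 libraries, Retn, Pnpla2 and Cfd were called rhythmic in WAT, with fitted peaks at ZT20.3, ZT11.1 and ZT22.4. The other 7 were not, Fabp4 (edgeR adjusted p = 0.0602) and Adipoq (0.741) among them. Mitochondrial genes took a mean of 6.05% of WAT libraries at ZT17 and 4.12% at ZT21, and 10.3% to 20.005% at the other times. Summed fibroblast markers averaged 295 CPM at ZT17 and 461 at ZT21, and 501 to 995 CPM at the other times, and summed endothelial markers 34.7 and 21.5 CPM, and 47.5 to 81.9 CPM at the other times. The part of these in the rhythms was not tested.

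**Figure D3:**
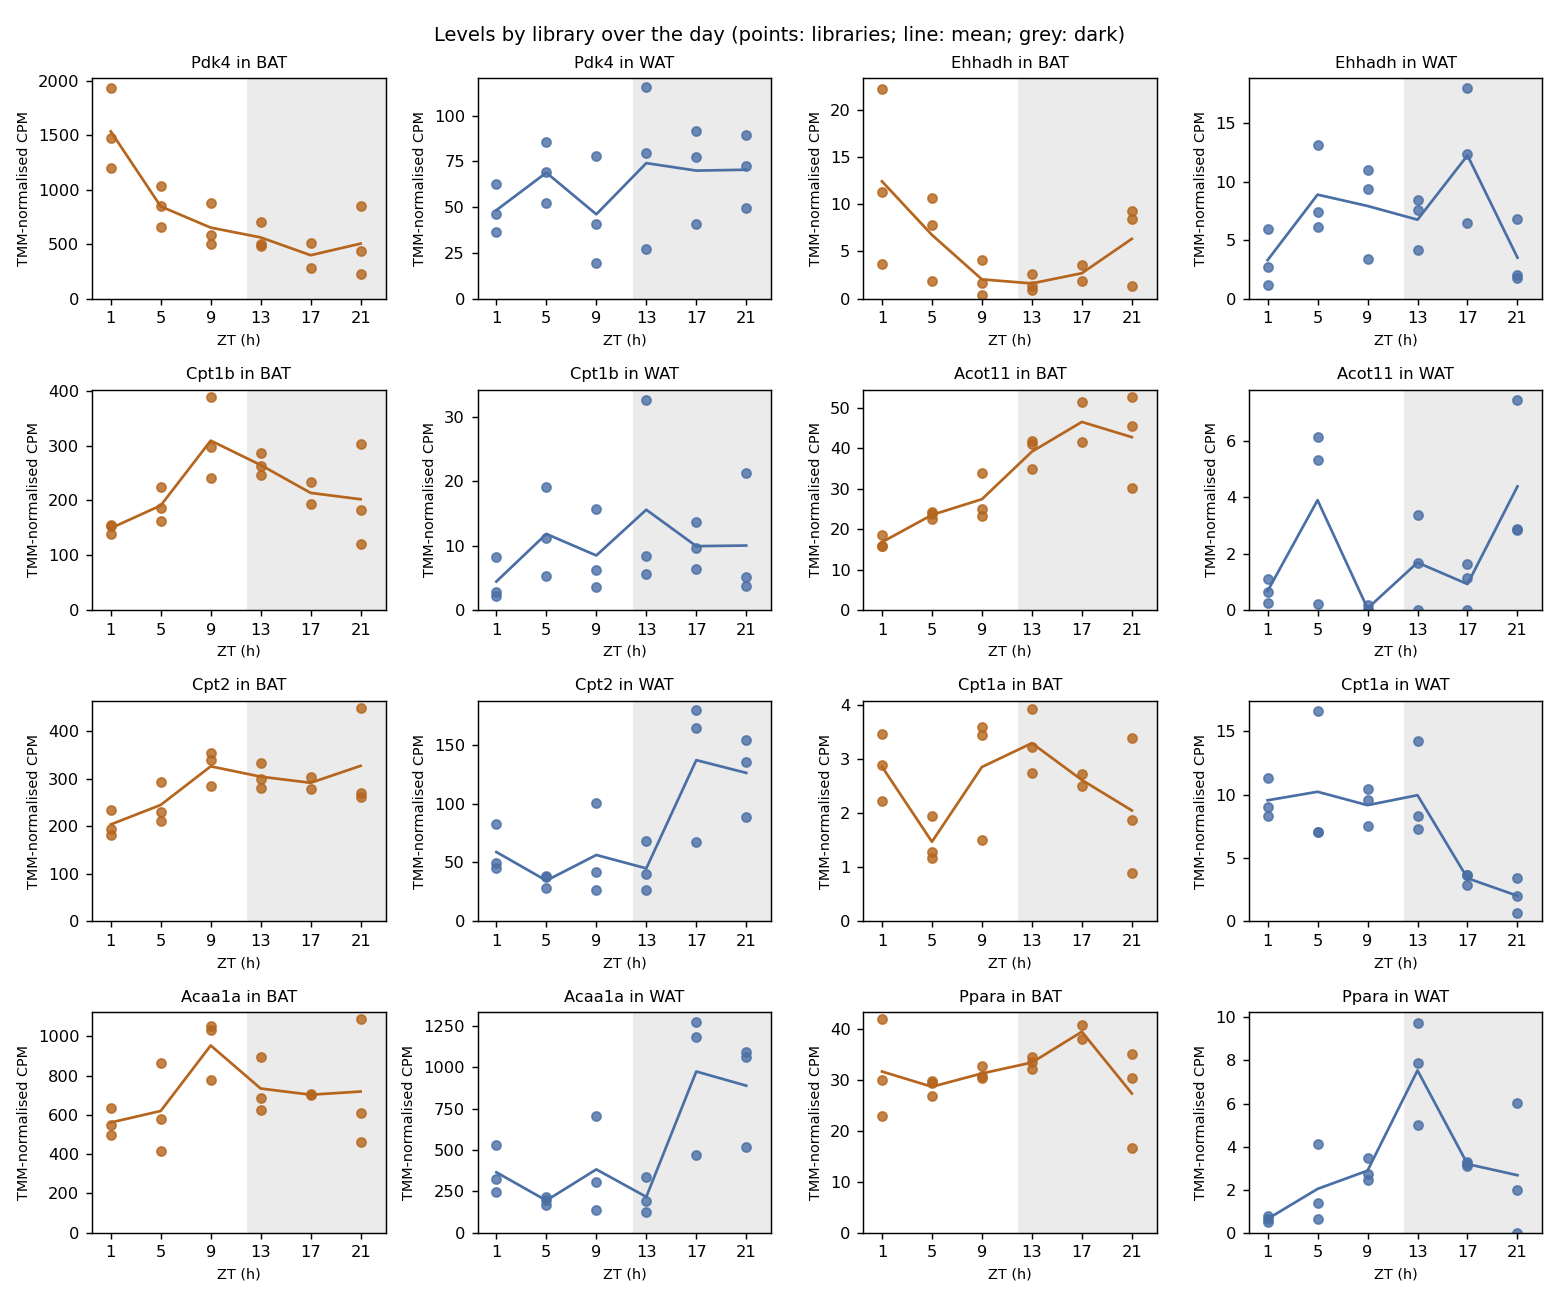
TMM-normalised CPM of 8 members by zeitgeber time, each gene in BAT (left) and WAT (right), with a point for each library, a line through the means and the dark hours in grey; each panel has its own scale. Pdk4 in BAT is highest at ZT1, Acot11 in BAT climbs to about ZT17, Cpt2 and Acaa1a in WAT are highest at ZT17 and ZT21, and Cpt1a in WAT is lowest there.

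Of the other pathway genes, 10 of 72 tested were rhythmic in BAT and 5 of 73 in WAT. Angptl4, an inhibitor of lipoprotein lipase and a known PPAR target, had the widest range among those of BAT, 2.14, with its peak at ZT2.8, near that of Pdk4, and was rhythmic in WAT too (1.58, peak ZT0.78). Acacb, whose malonyl-CoA inhibits CPT1, was called in both depots, with a range of 0.78 and a peak at ZT11.2 in BAT and 1.84 and ZT16.6 in WAT. In WAT the peroxisomal genes Pecr (2.06, ZT19.1) and Pex11a (1.86, ZT19.8) and the propionate-pathway mutase Mmut (1.78, ZT18.6) peaked in the hours at which Cpt2 and Acaa1a did. As a check of the times, 14 of 17 core clock genes were called in BAT and 5 of 17 in WAT; Dbp peaked at ZT10.2 in BAT and ZT10.6 in WAT, with ranges of 3.35 and 3.24.

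Whether the rhythm differs between BAT and WAT was tested as an interaction, whose size is the amplitude (log2) of the difference between the 2 fitted curves. The fit used 1 estimate of spread per gene for both depots, although the depots differ in spread. It was called for 6 of 31 members, where 9.04% of 14969 genes were. Acad11 had the smallest p (amplitude 1.15 ± 0.20, edgeR adjusted p = 0.00465). Its libraries had 32.4, 50.5 and 39.3 CPM at ZT1 and 23.1, 22.7 and 21 at ZT13 in BAT, against 10.4, 9.12 and 16.6 CPM at ZT1 and 30.6, 24.9 and 26.8 at ZT13 in WAT. BAT thus stood above WAT at ZT1 and below it at ZT13, with no overlap at either time. Ehhadh followed with 2.13 ± 0.45 (adjusted p = 0.0124): it averaged 12.4 CPM at ZT1 and 1.61 at ZT13 in BAT, against 3.29 CPM at ZT1 and 6.75 at ZT13 in WAT, and at ZT1 the depots overlapped. Both calls held in all 35 fits that left out 1 library. In BAT, Acad11 also varied between libraries of 1 time. It had 44.3, 49.2 and 23.2 CPM at ZT5, with TMM factors over both depots of 1.14, 1.25 and 0.996. At ZT21 it had 41.1, 22.4 and 38.9 CPM, with factors of 1.17, 0.924 and 1.37. Ehhadh had 8.42, 1.33 and 9.25 CPM in those ZT21 libraries. At ZT17 Acad11 had 34.0 and 25.6 CPM at factors of 1.06 and 1.08. The part of library composition in these rhythm differences was not tested.

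The other 4 were Ppara (1.09, adjusted p = 0.0341), Acaa1a (1.06, 0.0405), Decr1 (0.98, 0.0415) and Cpt2 (0.83, 0.0446), by edgeR. Ppara, the receptor, was between 16.6 and 42.0 CPM in all BAT libraries, with means of 31.7 CPM at ZT1 and 33.5 at ZT13, whereas in WAT it had 0.491, 0.793 and 0.637 CPM at ZT1 and 9.74, 4.99 and 7.89 CPM at ZT13. Its WAT values rest on few counts. Nearest to the threshold without passing were Acsl1 (0.0566), Etfb (0.0572) and Pdk4 (0.0726). Leaving out 1 library gave 2 members (without BAT ZT1 replicate 2) to 15 (without WAT ZT9 replicate 3). Over all genes it gave 491 (without WAT ZT21 replicate 3) to 2949 (without WAT ZT9 replicate 3) calls, against 1353. Ppara held in 24 of 35 fits, Acaa1a in 16, Decr1 in 15 and Cpt2 in 10. Without the 3 WAT libraries high in ribosomal RNA, 17 members and 24.1% of all genes were called, with Acsl1, Etfb and Pdk4 among the members.

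The dark hours (ZT13, ZT17 and ZT21) were also set against the light hours (ZT1, ZT5 and ZT9), with lights off taken at ZT12 by convention; the libraries are those of the rhythm fits. In BAT 2 of 31 members were called, 1 in each direction, against 0.855% of all genes higher in the dark and 0.444% lower (1.3% in all). Acot11 had 30.2, 41.7 and 52.7 CPM (lowest, median and highest) in the dark and 15.8, 23.3 and 33.9 in the light, a log2 difference of 0.94 ± 0.12 (edgeR adjusted p = 0.00132), and the call held in every fit with 1 library left out. Pdk4 had 231, 491 and 848 CPM in the dark and 498, 875 and 1938 in the light (-0.98 ± 0.22, edgeR adjusted p = 0.0424). That call was kept in 4 of 17 such fits, with an adjusted p from 0.00676 to 0.214. The next members were Cpt2 (0.27, adjusted p = 0.359), Etfa (-0.18, 0.431) and Acsl1 (-0.39, 0.434), none of which passed, and of the other pathway genes Angptl4 was lower in the dark (-1.26).

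In WAT 2 of 31 members were called in the dark against the light, 1 in each direction; 4.34% of all genes were called higher and 3.16% lower, 7.5% in all. Both belong to the carnitine shuttle. Cpt2 had 26.8, 88.4 and 179 CPM in the dark and 26.7, 41.5 and 101 in the light (log2 difference 0.88 ± 0.24, edgeR adjusted p = 0.0331). Cpt1a had 0.619, 3.64 and 14.2 CPM in the dark and 7.03, 8.99 and 16.6 in the light (-1.21 ± 0.33, edgeR adjusted p = 0.0303). By time, Cpt1a had 8.34, 8.99 and 11.3 CPM at ZT1, 7.07, 7.03 and 16.6 at ZT5, 9.59, 7.496 and 10.4 at ZT9, 8.35, 14.2 and 7.32 at ZT13, 3.68, 3.64 and 2.89 at ZT17, and 0.619, 3.44 and 1.98 at ZT21. All 6 libraries of ZT17 and ZT21 were thus below the other 12, while ZT13, also dark, was not. Acaa1a (adjusted p = 0.0509), Echs1 (0.0551) and Decr1 (0.0970) came next without passing.

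The members' median difference in WAT was 0.48, dark over light, and that of all genes -0.10. Without TMM scaling these medians were 0.36 and -0.33, Cpt1a alone was called, and the calls over all genes were 173 higher and 562 lower in place of 551 and 402; with DESeq2 they were 745 higher and 830 lower. Without the 3 WAT libraries high in ribosomal RNA, 14 members were called higher in the dark and 1, Cpt1a, lower (20.9% of all genes called), the largest being Acaa1b at 1.38, Acaa1a at 1.20 and Cpt2 at 1.19. Removing ZT9 replicate 3 alone gave 11 calls, and other single libraries as few as 0. Over all genes the calls were 2013 without ZT9 replicate 3 and as few as 188, without ZT1 replicate 3, against 953 with all libraries. Cpt1a held in 6 and Cpt2 in 7 of 18 such fits. The summed adipocyte markers, mostly Fabp4, were 9797 to 86446 CPM (median 38161) in the dark and 9715 to 63184 CPM (median 21294) in the light in WAT. Summed fibroblast markers were 180 to 635 CPM in the dark and 403 to 1162 CPM in the light, 5 of the 7 called lower in the dark, and the part of these in the members' differences was not tested. Of other pathway genes in WAT, the coactivator Ppargc1b (1.29) and the nuclear receptor Pparg (0.73) were higher in the dark, as were Acacb, Mmut and Pecr, and Cyp4b1 was lower (-2.65).

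The authors' deposited tables of JTK_CYCLE, a rank-based rhythm test run on TPM, list all 31 members in each depot. In the authors' deposited table for BAT, 1 member, Acadl, had a q-value under 0.05 (0.0233), and 4.33% of 14055 genes did. In the authors' deposited table for WAT, 0 members and 0.136% of 12541 genes had one.

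Open chromatin was then compared at these genes. The peak lists assign each peak to the gene with the nearest start site, and the BAT list held 135 peaks at all 31 members among 42572, the WAT list 59 at 28 members among 25050. The members thus had 2.29 times as many peaks in BAT as in WAT, and all genes 1.7 times; each depot has 1 peak list, and depth was greater in BAT (3959384 to 12811242 tags in peaks per library, against 1623006 to 5294923 in WAT). A peak within 1 kb of the start site was present at 30 members in BAT and 25 in WAT. Of the member peaks, 37.8% of those in BAT overlapped a WAT peak, against 50.8% of all BAT peaks, and 84.7% of those in WAT overlapped a BAT peak, against 86.3% of all WAT peaks.

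At 51 regions open in both depots, near 24 members, accessibility could be compared. The paired peaks overlapped by at least 75 bases, so the windows counted in the 2 depots were not identical. BAT was more open at 5 and less open at 0 (edgeR adjusted p under 0.05 and at least 2-fold; 3.58% of 21626 regions were called higher, 3.56% lower and 7.13% in all). The median log2 difference was 0.17, against -0.013 over all shared regions. Pdk4 had 2 of the 5. Its promoter peak, at chr6:5496379-5496529 and -176 bases from the start site, overlaps the sequence shown above and had 134, 145 and 160 CPM of ATAC tags (lowest, median and highest of 18 libraries) in BAT, against 61.6, 69.0 and 88.7 in WAT (log2 difference 1.05 ± 0.033). The other, at chr6:5509879-5510029 in intergenic sequence at -13676 bases from the start site, had 67.4, 83.0 and 94.4 CPM in BAT libraries and 13.8, 25.3 and 43.7 in WAT (1.60 ± 0.069). BAT and WAT libraries did not overlap at either. At the promoter the WAT tags were counted over chr6:5496310-5496460, which shares only 81 bases with the BAT window. The windows of the intergenic region share 129 bases.

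The others lay inside genes: an intron of Hadha (chr5:30135845-30135995, 1.39 ± 0.062), Eci1 (chr17:24429737-24429887, annotated to an intron 3129 bases downstream of the start, 1.35 ± 0.057) and an intron of Hadh (chr3:131246854-131247004, 1.21 ± 0.052), in mm10 coordinates. All 5 calls held in the 36 fits that left out 1 library, and their ranges of CPM did not overlap between depots. The BAT and WAT windows share 89 bases at Hadha, 91 at Eci1 and 132 at Hadh. With an overlap of at least 120 bases required, 2 of the 5 calls remained. The Pdk4 promoter, Hadha and Eci1 pairs fall short of that overlap and were not compared there. Of 27 shared promoter regions of members 1 was called higher, where 0.718% of all shared promoter regions were, and the median difference was 0.15 over the 27 and -0.042 over all of them. Acsl1, whose RNA was not called by depot, had 2 shared promoter regions, neither past 2-fold: the one at -17 bases from the start site was lower in BAT (-0.47) and the one at -736 bases had a difference of 0.099. The peak intervals of the BAT list are given.

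**Figure D4:**
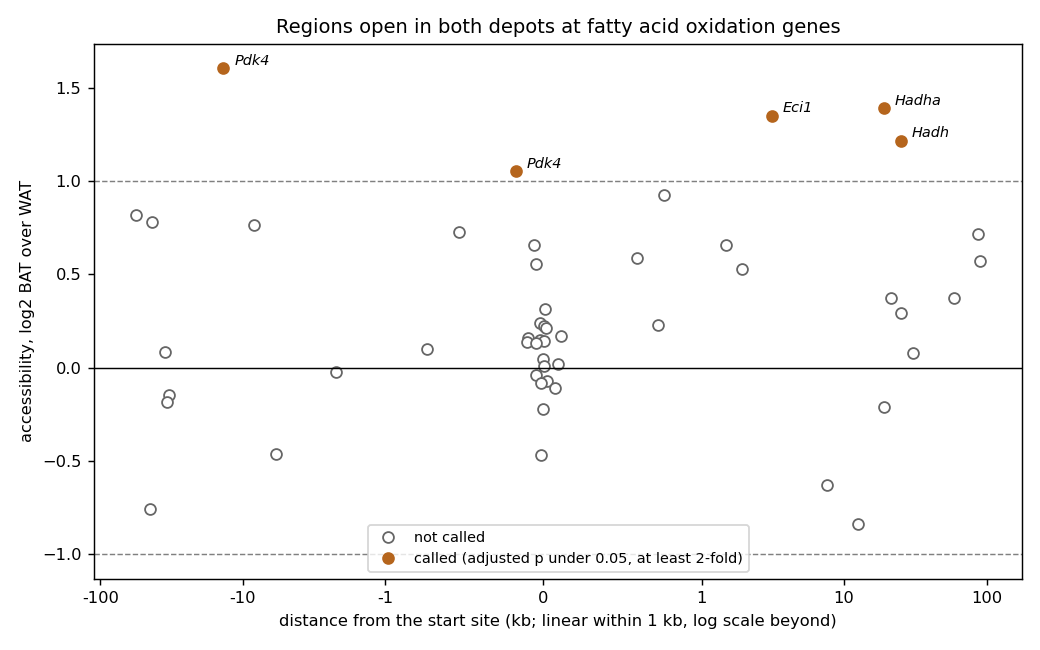
Log2 difference in ATAC tags, BAT over WAT, of the 51 regions open in both depots against their distance from the start site of the member gene (kb; linear within 1 kb, logarithmic beyond). The 5 filled points passed an adjusted p of 0.05 and 2-fold, and most regions at the start sites lie between the dashed 2-fold lines near 0.

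Rhythmic accessibility was called at 20 of 135 member peaks in BAT, at 13 genes, or 14.8%, where 18.9% of all BAT peaks were. In WAT it was 9 of 59, at 5 genes, or 15.3%, where 15.8% of all WAT peaks were. The shares among members were thus near those of all peaks. The promoter peak of Acot11 in BAT, at chr4:106799787-106799937 within the sequence shown, averaged 24.1 CPM at ZT1, 27.4 at ZT5, 28.8 at ZT9, 32.4 at ZT13, 28.6 at ZT17 and 25.3 at ZT21 (range 0.37 ± 0.083, peak at ZT12.2, edgeR adjusted p = 0.0113). It was highest at ZT13 and its fitted peak preceded that of the Acot11 RNA, at ZT16.2; the WAT list held no peak at that promoter. The peak with the smallest p near Pdk4 in BAT lay 25133 bases downstream of the start site, with a range of 0.62 ± 0.10 and a peak at ZT19.7 (edgeR adjusted p = 0.00126), in the hours when Pdk4 RNA was low. In WAT, 4 of the 9 were assigned to Acsl1, including its promoter (0.27 ± 0.059, peak ZT0.662, adjusted p = 0.00977) and a site at -51420 bases (1.05 ± 0.19, peak ZT20.7, adjusted p = 0.00138).

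BMAL1 binding in white fat at ZT4 was described from the authors' list of 10368 peaks, 1 list for both libraries, in which the score of each peak is the authors'. It held 24 peaks assigned to 18 of the 31 members, 58.1%, where 45.4% of 14957 tested genes had at least 1. Within 1 kb of the start site, 15 members had a peak, 48.4%, where 36.5% of those genes did. The highest score was at Acsl1, 20.7, rank 192 of the list, over the promoter shown above (chr8:46470941-46471153, 10 bases from the start site), with 17.8 and 24.3 tags in the 2 libraries, scaled by the authors to an equal library total. That promoter window holds no CACGTG or CACGTT, but the peak runs past the end of the window and the rest of it was not searched. Crat had a score of 16.1 at its promoter (14.7 and 16.1 tags), Echs1 10.4 at its promoter (10.6 and 10.9 tags) and Cpt1a 9.07 in an intron (10.97 and 7.52 tags). For scale, the top peak of the list, at the clock gene Nr1d1, had a score of 201.3, and the median score was 6.42 over member peaks and 6.16 over all.

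The BMAL1 peak at the promoter shared by Hadha and Hadhb, assigned to Hadhb, scored 5.65, with 6.51 and 4.10 scaled tags. Acot11 had 3 peaks, scores 6.16, 4.45 and 4.28, none at its promoter, where the E-box lies in the sequence shown, and Pdk4 had none. Of the 24 peaks, 17 overlapped open chromatin of WAT, 70.8%, against 55.9% of all BMAL1 peaks.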

How the data were processed

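Ribosome-bound RNA and open chromatin of tagged adipocytes and BMAL1 binding in white fat were measured as deposited. Per the labels' protocols, RNA libraries were made from 250 ng with a directional NEBNext kit, and ATAC libraries by the Omni-ATAC protocol. The submitters' processing notes name the build mm10 and, without giving roles, STAR 2.7.5, RSEM 1.3.0, HOMER, DESeq2 and limma, and Bowtie2 2.4.1 for the ChIP libraries. The authors deposited RNA as estimated counts per gene (3.02% of values were not whole, and all were rounded here); the sources do not state the strand setting of the counting. TPM values per library and JTK_CYCLE q-values are the authors', from their deposited rhythm tables. ATAC values are the raw tag counts per peak that the authors deposited, and BMAL1 values are the authors' deposited signal, in tags scaled to an equal library total, with a peak score. The table has 1 column of a sample not listed, which was left out.

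From the counts, edgeR 4.0.16 was used in R 4.3.3 with TMM scaling (a factor per library that balances most genes), the filterByExpr filter, quasi-likelihood tests and Benjamini-Hochberg adjustment over all features of a fit. A depot call needed an adjusted p under 0.05 and a 2-fold difference; other calls the p alone. The depot fit held depot and time; rhythm fits held a cosine and a sine of 24 h; dark and light hours were compared as means of their times. Gene symbols were matched for 55394 of 55487 identifiers. Promoters came from RefSeq. The tests were tried on simulated data with known changes.

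Alternatives were DESeq2 1.42.0, its size factors in edgeR, no filter, a replicate block, time as a factor, counts without mitochondrial genes and ribosomal RNA loci, leaving out the WAT libraries high in ribosomal RNA, leaving out each library, and other peak limits. Totals without TMM factors were added after seeing the data. The labels do not say whether equal replicate numbers at a time mark BAT and WAT of 1 animal. The deviations of such libraries correlated at -0.18 to 0.13. With at most 3 libraries per group this cannot exclude a pairing, and the main fits treated all libraries as unpaired. The members, lists and tests were chosen with earlier results of these data known. In the text every member is named for the depot comparison, and for the others each called member and the 3 nearest to the threshold; of other genes at most 3 are named per list and direction.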

Additional observations from a re-analysis of the deposited data

Results flagged for a closer look

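The 24 h rhythm of 6 members differed between BAT and WAT by a test of the difference itself, the interaction of depot and time in edgeR. Expressed as the amplitude of the BAT minus WAT curve, the difference was 2.13 for Ehhadh, 1.15 for Acad11, 1.09 for Ppara, 1.06 for Acaa1a, 0.98 for Decr1 and 0.83 for Cpt2, on the log2 scale, and each adjusted p is in the account of that comparison. The difference curve, BAT minus WAT, was highest near lights on for Ehhadh (ZT0.641), Acad11 (ZT1.23) and Ppara (ZT1.49), and in the later light hours for Acaa1a (ZT7.65), Cpt2 (ZT7.85) and Decr1 (ZT8.73).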

How the results depend on the processing

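The depot difference was stable: 24 to 29 of 31 members were called under its alternatives, against 26, and 25 to 27 with 1 library left out. DESeq2 and its size factors moved the median difference of all genes to -0.44 and that of members to 1.94. No called depot or dark-light difference changed sign under any alternative run. The sizes of rhythms and rhythm differences are never negative, so sign says nothing about them. Counts of rhythmic and dark-light members moved more. In BAT rhythm the 9 members became 15 with DESeq2, 2 with time as a factor and 1 to 17 with a library left out. In WAT rhythm the 5 became 8 with DESeq2, 3 without mitochondrial genes and ribosomal RNA loci, 12 without the 3 libraries high in ribosomal RNA and 1 to 10 with a library left out. For the rhythm difference the 6 became 11 with DESeq2, 10 with no filter, 17 without those 3 libraries and 2 to 15 with a library left out. For dark against light in BAT the 2 became 1 without TMM factors and 1 to 2 with a library left out; in WAT the 2 became 5 with DESeq2, 4 with no filter, 4 with the replicate block, 1 without TMM factors, 15 without the 3 libraries and 0 to 11 with a library left out. With the replicate block the counts were otherwise 26 for depot, 7 and 6 for BAT and WAT rhythm, 6 for the rhythm difference and 2 for dark against light in BAT.

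In ATAC, the 20 rhythmic BAT peaks became 45 with time as a factor and 13 within 10 kb (14 to 23 with a library left out), the 9 in WAT became 4 within 10 kb (7 to 11), and the 5 shared regions became 2 at an overlap of at least 120 bases (5 to 5). With the block the counts were 21, 9 and 5. Members with a BMAL1 peak numbered 17 within 10 kb (54.8%, where 39.9% of genes tested had one) and 12 above the median score (38.7%, where 27.4% did), against 18.

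Counts over all genes that moved by over 1.5 times were, for BAT rhythm, 1136 against 2465 with DESeq2, 1754 with no filter, 617 with time as a factor and 2305 without TMM factors; for WAT rhythm, 1257 against 2106 with DESeq2, 3046 with no filter, 782 without TMM factors and 2689 without the 3 libraries. For the rhythm difference 1353 stood against 2615, 2156, 713 and 3616 in that order. For dark against light, 161 in BAT stood against 353 with DESeq2, 471 with no filter and 105 without TMM factors, and 953 in WAT against 1575 with DESeq2, 1457 with no filter and 2845 without the 3 libraries. For ATAC rhythm in BAT 8053 stood against 14063 with time as a factor. With 1 library left out, counts over all genes ran from 460 to 3383 for BAT rhythm, 472 to 2519 for WAT rhythm, 491 to 2949 for the rhythm difference, and 59 to 194 in BAT and 188 to 2013 in WAT for dark against light. The cause of these shifts was not tested. Members low in counts in WAT, such as Acot11 and Ppara, limit what a rhythm test there can show.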
